A study of Mus musculus with 12 samples.

Results

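Neuropeptides are small signalling proteins that neurons cut out of longer precursors, store in dense-core granules and release to act on receptors coupled to G proteins. The genes described here are 8 precursor genes, Sst, Npy, Vip, Pnoc, Tac1, Trh, Avp and Oxt, and the receptor genes Oxtr and Avpr1b. They were chosen by name, with earlier results of these data known. All 10 were found among the 33250 gene symbols of the table. The 8 genes other than Avp and Oxt had enough reads to be tested.

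The measurements were polyA RNA sequencing of bulk hippocampus from male mice, with 6 cKO animals and 6 WT animals. In cKO animals, Cre recombinase active in Emx1-positive cells removes a cluster of microRNA genes bounded by miR379 and miR410. The Emx1 lineage gives rise to most excitatory neurons of the hippocampus and cortex and to some of their glia, and cells without Cre keep the cluster. The sources used here do not give the age of the animals, or whether WT animals carried Cre or an unrecombined allele. The question addressed is whether the loss of the cluster in these cells alters gene expression in the tissue.

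In the hippocampus, somatostatin (Sst), neuropeptide Y (Npy) and vasoactive intestinal peptide (Vip) mark classes of GABAergic interneurons, which arise from the ventral forebrain and not from the Emx1 lineage. Oxytocin (Oxt) and vasopressin (Avp) are made by hypothalamic neurons, whereas their receptors Oxtr and Avpr1b are made by hippocampal cells, with Avpr1b a known gene of CA2 pyramidal neurons. Both receptors are known for their parts in social memory and social behaviour in mice.

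Library totals ranged from 42360624 to 51095816 counts. Levels are given as CPM, counts relative to library size after TMM scaling, and a difference is the log2 fold change of cKO over WT from edgeR. Emx1 was at 9.14 CPM in the library labelled cKO 1 and at 5.91 to 6.84 CPM in the other 5 cKO libraries, against 8.38 to 9.60 CPM in WT. B830012L14Rik, a non-coding RNA gene close to the cluster, was at 0.788 CPM in the library labelled cKO 1 and at 17.4 to 25.8 CPM in the other cKO libraries, against 0.310 to 0.865 CPM in WT. The library labelled cKO 1 therefore stood with WT at both genes. Mirg, the host transcript of part of the cluster, averaged 34.1 ± 7.31 CPM in cKO and 30.7 ± 2.39 CPM in WT (SD, n = 6 each, edgeR adjusted p = 0.738). In Mirg the library labelled cKO 1 was lowest, at 23.6 CPM, below the WT range of 28.4 to 34.1 CPM. Values without the library labelled cKO 1 are given below for Pnoc and for the correlations. Ttr, an abundant choroid plexus gene, spanned 28.3 to 5078 CPM in cKO and 49.8 to 7657 CPM in WT. Prox1, a transcription factor of dentate granule neurons, averaged 103 ± 18.2 CPM in cKO and 119 ± 13.0 CPM in WT (SD, n = 6 each), so a defining hippocampal marker was present in both groups.

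Matches to the seeds of the cluster's microRNAs were searched in the annotated 3′ UTRs of the 10 genes, since a microRNA binds its targets mainly through bases 2 to 8. RefSeq (GRCm38.p6) lists 71 mature microRNAs from 36 hairpins between 109709060 and 109743795 on chromosome 12, with 64 distinct seeds. All arms were counted, because the sources used here do not give which arm is loaded in these cells. The longest 3′ UTR of each gene in GENCODE M21 (GRCm38) was searched on the sense strand for the 7 bases that pair with a seed. Pnoc held 11 matches in 1234 bases and Oxtr held 16 in 3391 bases. Avpr1b held 4 in 2255 bases, Trh 3 in 502 bases, Tac1 3 in 545 bases, Vip 2 in 851 bases and Oxt 1 in 122 bases. Sst, Npy and Avp held 0 matches in UTRs of 156, 180 and 57 bases. Of the 15264 tested genes with such a UTR of at least 50 bases, 89.3% held at least 1 match, and the density over all of them was 4.2 matches per kilobase. Pnoc had 8.91 matches per kilobase, Oxt 8.2, Trh 5.98, Tac1 5.5 and Oxtr 4.72. Vip, at 2.35, and Avpr1b, at 1.77, lay below the density over all genes.

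The microRNAs whose seeds matched more than once in 1 gene are shown here with the seed in capitals. Beside them stand 1 pair with a shared seed, and 1 microRNA whose seed matched both Tac1 and Avpr1b, as examples of several pairs and several microRNAs of these kinds.
mmu-miR-412-3p: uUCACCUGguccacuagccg
mmu-miR-543-3p: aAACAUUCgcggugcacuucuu
mmu-miR-668-3p: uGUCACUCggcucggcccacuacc
mmu-miR-154-3p: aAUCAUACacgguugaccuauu
mmu-miR-379-3p: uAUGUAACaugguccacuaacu
mmu-miR-411-3p: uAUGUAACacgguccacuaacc
The last pair share the seed AUGUAAC. Their matches, in capitals with the flanking UTR bases in lower case, are numbered from the first base after the stop codon.
Pnoc bases 51 to 57 (mmu-miR-412-3p): tgagcatcCAGGTGAtcccccgt
Pnoc bases 286 to 292 (mmu-miR-412-3p): catagggcCAGGTGAgaggaaca
Pnoc bases 927 to 933 (mmu-miR-412-3p): gcagcttcCAGGTGAtggggctg
Oxtr bases 2999 to 3005 (mmu-miR-543-3p): ctggagctGAATGTTctggaatg
Oxtr bases 3009 to 3015 (mmu-miR-543-3p): atgttctgGAATGTTtcgttgtt
Oxtr bases 2596 to 2602 (mmu-miR-668-3p): aagggaagGAGTGACtcagatat
Oxtr bases 3306 to 3312 (mmu-miR-668-3p): cgtctggtGAGTGACacagccaa
Tac1 bases 493 to 499 (mmu-miR-154-3p): cagtcattGTATGATgtgttgtg
Avpr1b bases 452 to 458 (mmu-miR-154-3p): gtgaactaGTATGATggtgatgt
Vip bases 438 to 444 (mmu-miR-379-3p and mmu-miR-411-3p): gctgctgtGTTACATaaggcaaa
The letters CAGGTGA occur in 12.7% of the 15264 UTRs, GAATGTT in 14.3%, GAGTGAC in 8.56%, GTATGAT in 6.62% and GTTACAT in 9.35%. The second GAATGTT in Oxtr overlaps a match to the seed of mmu-miR-494-3p. A match is a feature of the sequence and no evidence of binding.

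None of the 8 tested genes passed an adjusted p of 0.05, where 0.0103% of the 19325 genes tested did so, and their adjusted p-values lay between 0.519 and 0.969 (edgeR, quasi-likelihood test, Benjamini-Hochberg). DESeq2, which called 0.393% of all genes, and limma-voom also called 0 of them. At an unadjusted p under 0.05 there was 1 of the 8 in edgeR, Pnoc, where 9.54% of all genes lay under it, 3.2% higher and 6.34% lower in cKO. DESeq2 gave 2 (Pnoc and Trh) and limma-voom 1 (Avpr1b) at that level, for which the share of all genes is given here for edgeR alone. All 8 estimates were above 0, as were 53.4% of those of all genes, and their median log2 fold change was 0.16 against 0.01 over all genes tested. Without cKO 4 and cKO 5, the libraries highest in Trh, Tac1 and Vip, 6 of the 8 were above 0 and the median was 0.01. These libraries were left out after their values were seen. Lower estimates in Trh, Tac1 and Vip without them, here and below, therefore follow from that choice. In no tested gene did all 6 cKO animals lie on one side of all 6 WT animals, a pattern that 0.181% of genes showed with cKO above and 0.223% with cKO below. In bulk tissue, fewer cells of a type and less RNA per cell cannot be told apart.

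**Figure D1:**
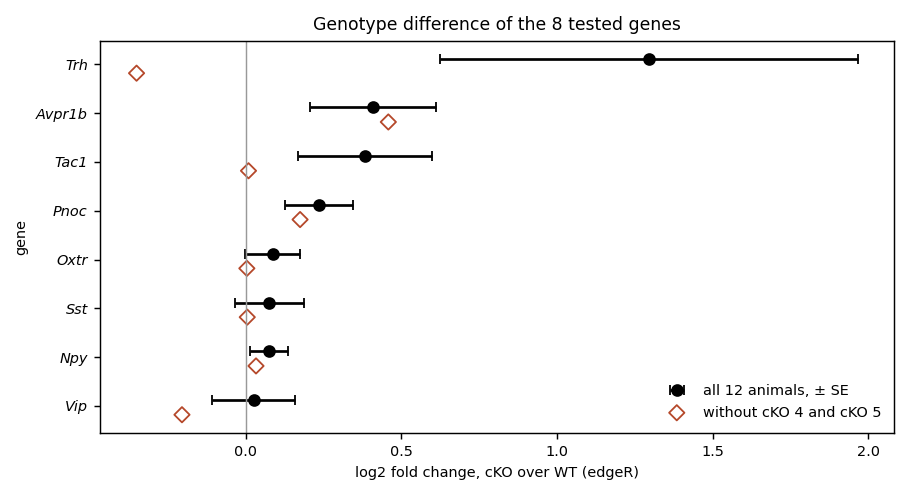
The log2 fold change of cKO over WT (horizontal axis) is plotted for the 8 tested genes, with filled points and SE bars for all 12 animals and open diamonds for the fit without cKO 4 and cKO 5. Trh has the widest bar, and its estimate is 1.297 with all animals and -0.3498 without those libraries, on the other side of 0. Those libraries were left out after their values were seen.

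Divided by the length of the longest annotated coding transcript, the interneuron precursor genes Sst, Npy and Vip had the highest means. Sst was at 199 ± 37.3 CPM per kilobase in cKO and 189 ± 21.2 in WT, and Npy at 59.8 ± 4.86 in cKO and 56.8 ± 4.23 in WT (SD, n = 6 each). Vip followed at 8.73 ± 2.04 CPM per kilobase in cKO and 8.56 ± 0.934 in WT, and Tac1 at 4.81 ± 1.77 in cKO and 3.69 ± 0.794 in WT. Below them came Pnoc at 3.48 ± 0.621 CPM per kilobase in cKO and 2.95 ± 0.176 in WT, and Oxtr at 2.57 ± 0.254 in cKO and 2.42 ± 0.291 in WT. Trh, at 0.742 ± 0.832 in cKO and 0.300 ± 0.144 in WT, and Avpr1b, at 0.170 ± 0.0215 in cKO and 0.129 ± 0.0440 in WT, were lowest of those tested. The animals' ranges of Tac1 and Pnoc overlapped in both genotypes, as did those of Trh and Avpr1b. Those of Vip and Tac1, and of Pnoc and Oxtr, overlapped in cKO and not in WT. The ranges of Sst, Npy and Vip did not overlap each other in either genotype.

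**Figure D2:**
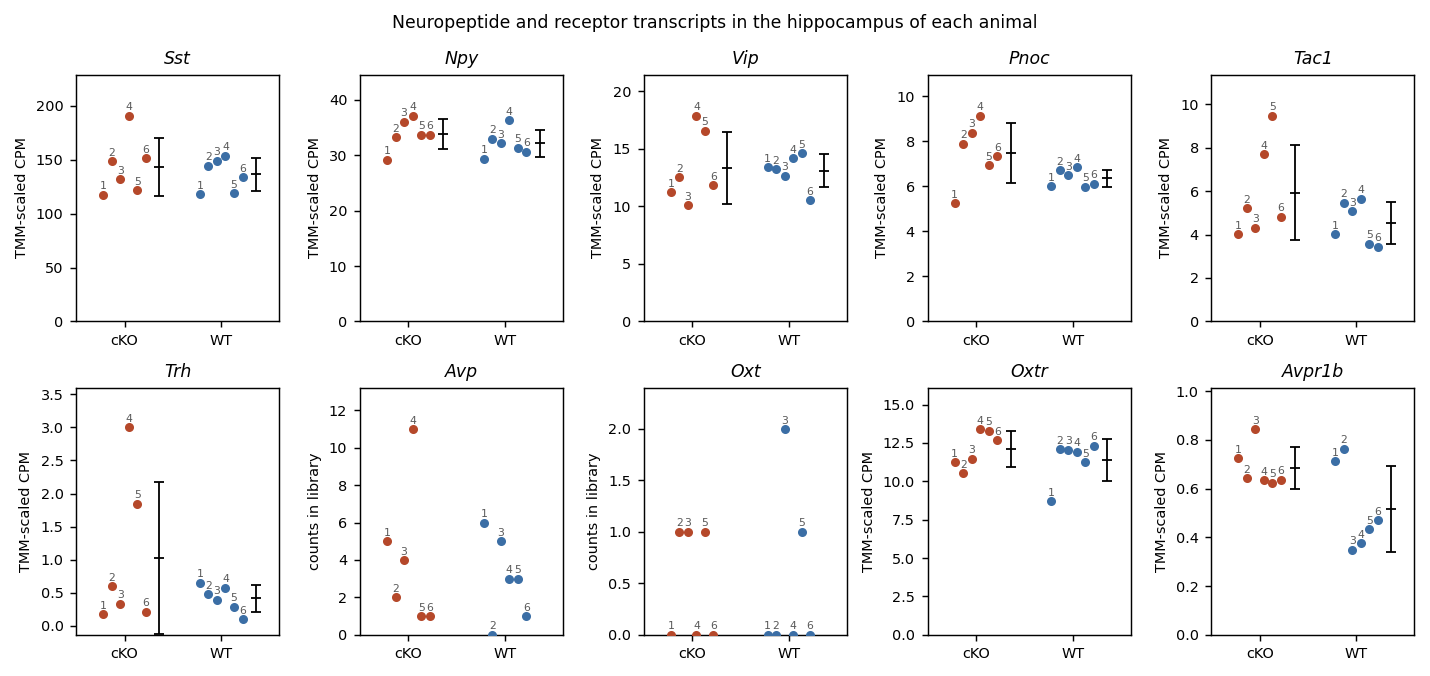
Each panel gives 1 gene, with TMM-scaled CPM on the vertical axis (counts in the library for Avp and Oxt), 1 point for each animal with its number, cKO left of WT, and the mean ± SD beside the points except for Avp and Oxt. Animals cKO 4 and cKO 5 stand above the others in Trh, Tac1 and Vip, and 5 of 6 cKO animals lie above every WT animal in Pnoc.

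Sst, the precursor of the inhibitory peptide somatostatin (chromosome 16, 23889573 to 23890958), was the most abundant of these genes, and 7.58% of tested genes had a higher mean CPM. It was at 118, 148, 132, 191, 121 and 151 CPM in cKO 1 to 6, and at 118, 145, 149, 154, 119 and 134 CPM in WT 1 to 6. Only cKO 4 lay above the WT range, cKO 1 lay at its lower edge and the others within it. In edgeR the estimate was a log2 fold change of 0.08 ± 0.11 (SE), adjusted p = 0.880. Counting error at its mean count is 1.23%, whereas the SD between animals was 18.7% of the mean in cKO and 11.2% in WT.

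Npy, an inhibitory peptide of several interneuron classes (chromosome 6, 49822710 to 49829507), had the smallest SD between cKO animals, 8.12% of the mean, and one of 7.45% in WT, where Pnoc varied less. Its levels were 29.2, 33.3, 36.1, 37.2, 33.7 and 33.7 CPM in cKO 1 to 6, and 29.4, 33.0, 32.2, 36.3, 31.4 and 30.6 CPM in WT 1 to 6. The groups overlapped over nearly their whole range (log2 fold change 0.07 ± 0.06 SE, edgeR adjusted p = 0.751).

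Vip (chromosome 10, 5639218 to 5647617), the peptide of interneurons that mainly contact other interneurons, read 11.2, 12.5, 10.1, 17.9, 16.6 and 11.8 CPM in cKO 1 to 6. In WT 1 to 6 it read 13.4, 13.2, 12.7, 14.2, 14.6 and 10.5 CPM. Animals cKO 4 and cKO 5 were above all WT animals while the other 4 cKO animals lay below the WT median. With all animals the log2 fold change was 0.03 ± 0.13 (SE, edgeR adjusted p = 0.969), and it was -0.20 without cKO 4 and cKO 5 (edgeR adjusted p = 0.524).

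Pnoc (chromosome 14, 65400673 to 65425472) encodes the precursor of nociceptin, a peptide of the opioid family. It was at 5.26, 7.90, 8.39, 9.14, 6.95 and 7.34 CPM in cKO 1 to 6, and at 6.01, 6.73, 6.49, 6.86, 5.99 and 6.12 CPM in WT 1 to 6. The library labelled cKO 1 lay below every WT animal and the other 5 cKO animals above every WT animal. Its log2 fold change was 0.24 ± 0.11 (SE), unadjusted p = 0.0479, edgeR adjusted p = 0.520. Without the library labelled cKO 1 it was 0.31 (edgeR adjusted p = 0.114). The SD between animals was 17.9% of the mean in cKO and 5.96% in WT, where counting error at the mean count is 5.499%.

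Trh, the precursor of thyrotropin-releasing hormone (chromosome 6, 92242061 to 92244650), was the most variable. Its counts were 8, 27, 17, 142, 83 and 11 in cKO 1 to 6 and 32, 20, 18, 29, 14 and 5 in WT 1 to 6. These are 0.170, 0.599, 0.334, 3.00, 1.85 and 0.212 CPM in cKO and 0.652, 0.477, 0.394, 0.573, 0.288 and 0.102 CPM in WT. Animals cKO 4 and cKO 5 stood far above all others, and the remaining cKO animals lay within the WT range. The log2 fold change was 1.297 ± 0.67 (SE, edgeR adjusted p = 0.575) with all animals and -0.3498 without cKO 4 and cKO 5 (edgeR adjusted p = 0.818).

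Tac1 (chromosome 6, 7554879 to 7565834) encodes the precursor of the tachykinins substance P and neurokinin A. Its levels were 4.01, 5.22, 4.32, 7.71, 9.47 and 4.82 CPM in cKO 1 to 6, and 4.02, 5.47, 5.07, 5.65, 3.58 and 3.45 CPM in WT 1 to 6. The same cKO animals, 4 and 5, were above the WT range, and the other 4 were within it. Over all animals the log2 fold change was 0.38 ± 0.22 (SE, edgeR adjusted p = 0.612), and it was 0.0096 without cKO 4 and cKO 5 (edgeR adjusted p = 0.991).

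Markers of other regions were read beside the levels of cKO 4 and cKO 5. The summed level of the 9 striatal markers, all of which were detected, was 449 CPM in cKO 5, against 340 to 352 CPM in the other cKO animals and 329 to 370 CPM in WT. Among them, in values chosen after they were seen, Adora2a was at 5.90 CPM in cKO 5 and at 1.21 to 1.92 CPM in the other cKO animals, against 1.24 to 2.43 CPM in WT. In cKO 4 the striatal sum was 352 CPM, the 11 general GABAergic markers summed to 1129 CPM, where WT had 891 to 1044 CPM, and the 11 choroid plexus markers summed to 159 CPM. Prox1 was at 81.0 CPM in cKO 4 and 87.0 CPM in cKO 5, against 99.4 to 135 CPM in WT. The thalamic markers summed to 175 CPM in cKO 5 and 140 to 147 CPM in the other cKO animals, against 132 to 171 CPM in WT. Habenular markers, at 49.5 CPM, and neocortical and amygdalar markers, at 531 CPM, were also highest among cKO animals in cKO 5, within WT ranges of 40.7 to 51.7 CPM and 461 to 533 CPM. The part of these marker levels in the peptide values was not tested.

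Avp and Oxt, whose precursors also carry the neurophysins, were at the limit of detection. Avp (chromosome 2, 130580620 to 130582554) had 5, 2, 4, 11, 1 and 1 counts in cKO 1 to 6, and 6, 0, 5, 3, 3 and 1 counts in WT 1 to 6. Oxt (chromosome 2, 130576173 to 130577054) had 0, 1, 1, 0, 1 and 0 counts in cKO 1 to 6, and 0, 0, 2, 0, 1 and 0 counts in WT 1 to 6. A count of 0 allows up to 3 counts, or 0.0708 CPM in WT 2 for counting error alone, so most of these libraries lie under that limit. In WT 3 the deposited values were 5.352 for Avp and 1.648 for Oxt, which add up to 7, and the part that is not whole shows reads shared between these similar neighbouring genes, which lie 3565 bases apart. No fold change is given for either gene. Hypothalamic markers were low, with a summed level over 9 genes of 3.07 to 4.65 CPM in cKO and 3.26 to 4.77 CPM in WT. Most of that sum came from the 3 that were tested. Hdc averaged 2.11 CPM in cKO and 2.07 CPM in WT, Nkx2-1 0.950 and 1.03 CPM, and Pomc 0.580 and 0.581 CPM. Of these, 0 were past the threshold and 0 at an unadjusted p under 0.05 in edgeR. Hcrt, the orexin precursor, was at 0 to 0.116 CPM in cKO and 0 to 0.0815 CPM in WT, and Sim1 had at most 3 counts in every library.

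Oxtr, the oxytocin receptor (chromosome 6, 112473683 to 112489943), was at 11.2, 10.5, 11.5, 13.4, 13.3 and 12.7 CPM in cKO 1 to 6. In WT 1 to 6 it was at 8.70, 12.1, 12.1, 11.9, 11.3 and 12.3 CPM. Animals cKO 4 to 6 lay above every WT animal and cKO 1 to 3 among them, while WT 1 stood apart below. The log2 fold change was 0.09 ± 0.09 (SE, edgeR adjusted p = 0.811).

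Avpr1b, the vasopressin receptor 1B (chromosome 1, 131599239 to 131612000), had 34, 29, 43, 30, 28 and 33 counts in cKO 1 to 6 and 35, 32, 16, 19, 21 and 23 counts in WT 1 to 6. Its levels were 0.724, 0.644, 0.845, 0.634, 0.624 and 0.636 CPM in cKO 1 to 6, and 0.713, 0.764, 0.3498, 0.376, 0.432 and 0.469 CPM in WT 1 to 6. All cKO animals were above the WT median and above WT 3 to 6, whereas WT 1 and WT 2 lay within the cKO range. Its log2 fold change was 0.41 ± 0.20 (SE, edgeR adjusted p = 0.559), and counting error at the mean count is 18.7%.

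Trh, Npy, Tac1 and Oxtr lie on the same chromosome as Emx1, the gene that defines the Cre-active cells. Their distances from Emx1 are 7.0 megabases for Trh, 27.3 for Oxtr, 35.4 for Npy and 77.6 for Tac1. The sources used here do not give where the Cre transgene lies or which stretch of this chromosome differs between the genotypes, and the part of linkage in these values was not tested.

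Each interneuron peptide was next set against Gad1 plus Gad2, the enzymes that make GABA, and each receptor against the summed level of 10 CA2 pyramidal markers, as a percent within each library. Gad1 plus Gad2 summed to 439 ± 31.3 CPM in cKO and 432 ± 26.3 CPM in WT, and the CA2 markers to 458 ± 7.76 CPM in cKO and 437 ± 28.9 CPM in WT (SD, n = 6 each). Pnoc was at 1.70 ± 0.243% of Gad1 plus Gad2 in cKO and 1.48 ± 0.0726% in WT, a log2 difference of 0.19 with an exact permutation p of 0.0628 (adjusted p = 0.266 over 6 ratios, two-sided). Avpr1b was at 0.1496 ± 0.0193% of the CA2 markers in cKO and 0.118 ± 0.0381% in WT, a log2 difference of 0.39 with an exact permutation p of 0.0887 (adjusted p = 0.266). The other ratios had adjusted exact permutation p-values of 0.580 to 0.905, with log2 differences of 0.05 for Npy, 0.04 for Sst, 0.02 for Oxtr and -0.02 for Vip. The smallest p that 6 against 6 animals allow is 0.00216. Without the library labelled cKO 1 the Pnoc ratio had a log2 difference of 0.26 and an adjusted exact permutation p of 0.0390, and since that library was also lowest in this ratio among cKO animals the value describes the other 11 libraries. Sostdc1, 1 of the CA2 markers, is also a choroid plexus gene and ranged from 1.69 to 27.0 CPM in cKO and from 2.39 to 41.9 CPM in WT.

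**Figure D3:**
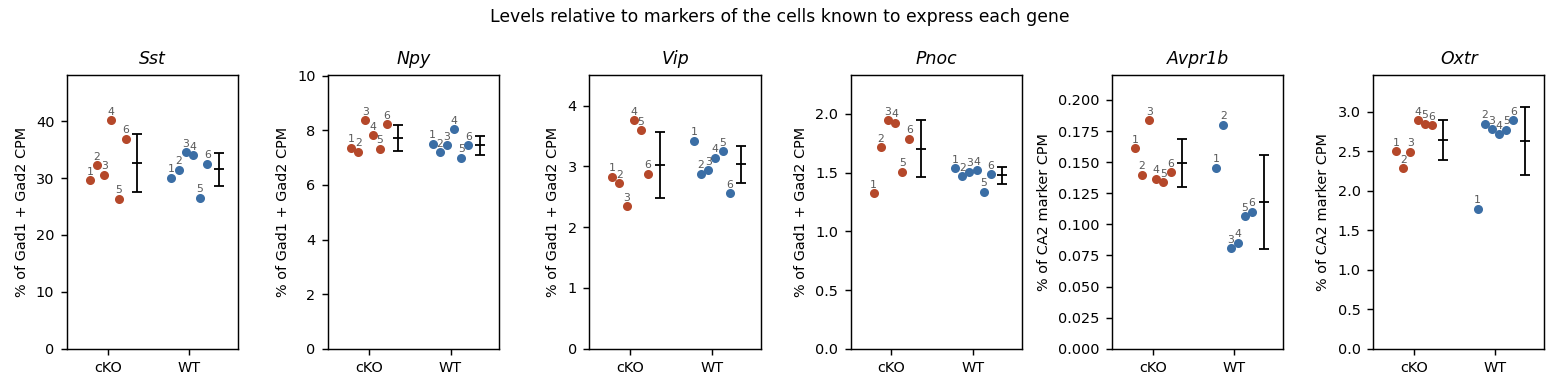
The 6 panels give the level of each gene as a percent of Gad1 plus Gad2 (Sst, Npy, Vip, Pnoc) or of 10 CA2 markers (Avpr1b, Oxtr), with 1 numbered point for each animal, cKO left of WT, and the mean ± SD beside the points. For Avpr1b all 6 cKO animals are above the WT median, and for Oxtr the point of WT 1 stands alone at 1.77%.

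Of 28 pairs of tested genes across the 12 animals, 6 passed an adjusted permutation p of 0.05 by Pearson's r on log2 CPM. They were the 3 pairs among Pnoc, Npy and Sst and the 3 pairs among Trh, Tac1 and Vip. By Spearman's rho 1 pair passed, Pnoc with Npy. The levels of 1 animal come from 1 library, and marker sums differed between animals, with choroid plexus sums of 159 to 7736 CPM in cKO and 222 to 11360 CPM in WT. The part of such differences in the correlations was not tested. Without the library labelled cKO 1, 3 pairs passed, and those that did not were Pnoc with Sst (r = 0.678, adjusted permutation p = 0.110), Sst with Npy (0.667, 0.110) and Tac1 with Vip (0.706, 0.104).

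Pnoc and Npy had r = 0.872 (permutation p = 0.00027, adjusted p = 0.0063) and rho = 0.881 (permutation p = 0.00042, adjusted p = 0.0118), with r = 0.961 within cKO and 0.886 within WT. Without the animals farthest from the median of Pnoc, cKO 1 and cKO 4, r was 0.767. Pnoc and Sst had r = 0.726 (adjusted permutation p = 0.0393) and rho = 0.664 (0.102), with r = 0.758 within cKO, 0.921 within WT and 0.42 without cKO 1 and cKO 4. Sst and Npy had r = 0.718 (adjusted permutation p = 0.0393) and rho = 0.713 (0.0659), with r = 0.675 within cKO, 0.806 within WT and 0.51 without the same animals. Of the 3 relations, that of Pnoc with Npy held most of its size without the extreme animals, and the other ones rest in part on them.

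Trh and Tac1 had r = 0.859 (permutation p = 0.00088, adjusted p = 0.00821) and rho = 0.783 (adjusted p = 0.056), with r = 0.918 within cKO and 0.659 within WT. Trh and Vip had r = 0.855 (adjusted permutation p = 0.0063) and rho = 0.734 (0.0568), with r = 0.925 within cKO and 0.75 within WT. Tac1 and Vip had r = 0.724 (adjusted permutation p = 0.0393) and rho = 0.587 (0.171), with r = 0.931 within cKO and 0.37 within WT. Without cKO 4 and cKO 5 these were 0.635 for Trh with Tac1, 0.614 for Trh with Vip and 0.316 for Tac1 with Vip, and 0 of the 28 pairs passed (Pnoc with Npy had r = 0.829, adjusted permutation p = 0.0972). The relations among Trh, Tac1 and Vip rest in part on those animals. Within WT, Tac1 had higher r with Pnoc (0.942), Sst (0.811) and Npy (0.775) than with Trh or Vip, and over all animals these pairs had r = 0.541 with Pnoc, 0.449 with Sst and 0.615 with Npy (adjusted permutation p = 0.166, 0.292 and 0.131). Tac1 with Npy had rho = 0.755 (adjusted permutation p = 0.0568), and Tac1 with Sst had r = 0.808 without cKO 4 and cKO 5. Oxtr and Avpr1b had r = -0.203 with each other (adjusted permutation p = 0.662), and no pair with either of them passed.

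**Figure D4:**
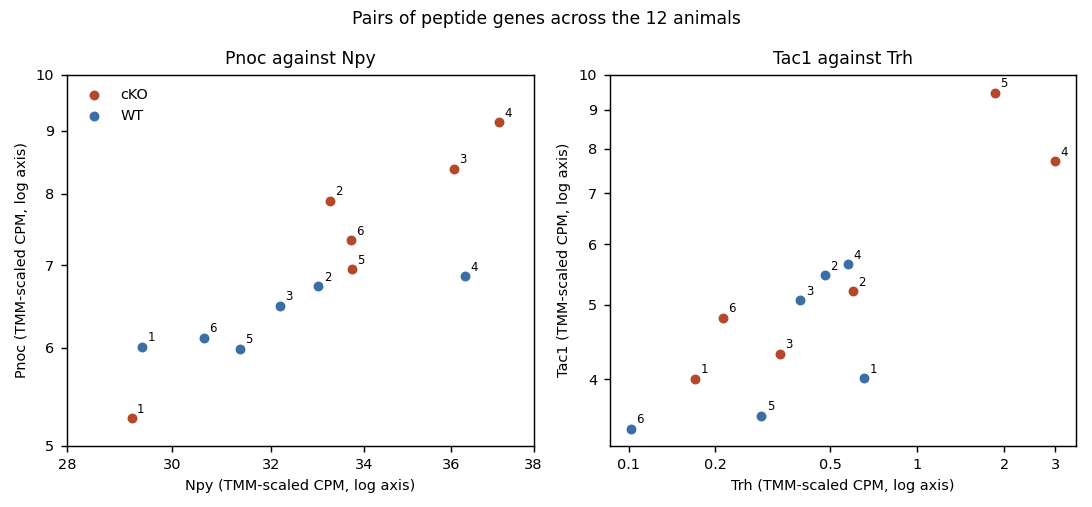
Each point is 1 animal, numbered, with TMM-scaled CPM of 1 gene on each logarithmic axis and cKO and WT in different colours. Pnoc follows Npy through both genotypes (r = 0.872), while in the plot of Tac1 against Trh the animals cKO 4 and cKO 5 lie apart from the other 10.

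**Figure D5:**
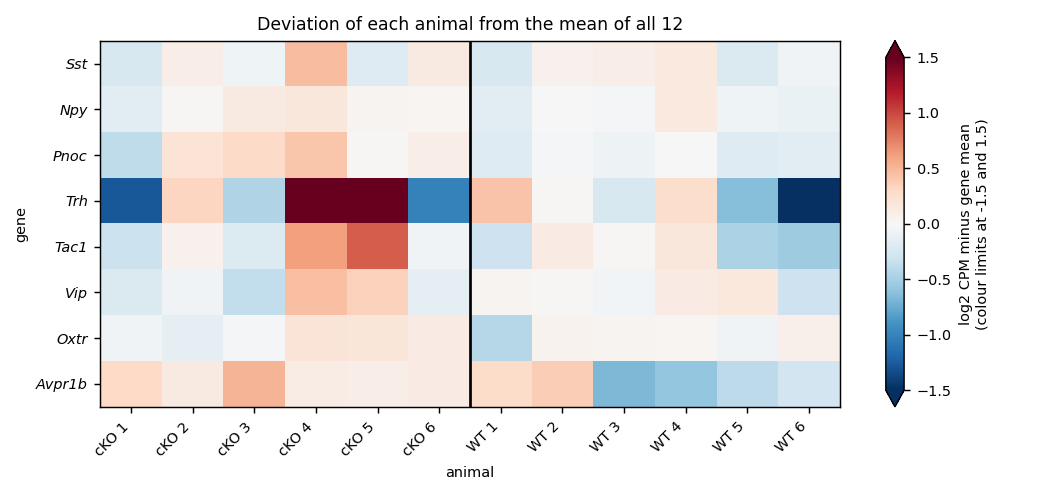
Rows are the 8 tested genes and columns the animals, cKO left of the line and WT right of it, and colour is the log2 CPM minus the gene's mean over all 12 animals. The column of cKO 4 is above the mean in every gene, the Trh row goes beyond the colour limits at 2.56 in cKO 4, 1.88 in cKO 5 and -1.84 in WT 6, and Avpr1b is below the mean in WT 3 to 6.

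For each tested gene, the genes of at least 1 CPM with the highest Pearson r over the 12 animals were read from 15545 genes, as a description of the best matches in a large search. Pnoc was closest to Baiap3 (r = 0.93), Lhx6 (0.91), a transcription factor of interneurons from the medial ganglionic eminence, and Ecel1 (0.91). Tac1 was closest to Cartpt (0.93), another peptide precursor, Fam196b (0.93) and Adk (0.91), and Trh to Sh2d5 (0.94), Nxph4 (0.93) and Nars (0.91). Sst was closest to B630019K06Rik (0.95), Ly6h (0.94) and Rab26 (0.93), and Npy to Dlk1 (0.91), Bri3bp (0.91) and Lrig1 (0.90). Vip was closest to Doc2a (0.90), Tagln3 (0.90) and Lypd6b (0.90). The closest genes to Oxtr were Adra2a (0.92), a noradrenaline receptor, Emd (0.91) and 4930525G20Rik (0.86). Those to Avpr1b were Nagpa (0.89), Kifc3 (0.85) and Zcchc10 (0.84). Some of these matches were weaker within 1 genotype, with r = 0.38 within cKO for Avpr1b and Zcchc10 (0.91 within WT). For Pnoc and Ecel1 r was 0.62 within WT and 0.90 within cKO.

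Of 16 other tested peptide precursors, 11 had a higher and 5 a lower estimate in cKO, 0 passed the threshold in either direction (edgeR, with 2 at an unadjusted p under 0.05), where 53.4% of all genes had a higher estimate and 9.54% lay under that p, and the median log2 fold change was 0.04. Cartpt, the precursor of a peptide linked to feeding and reward, was at 1.04, 1.15, 1.06, 1.88, 2.36 and 1.31 CPM in cKO 1 to 6 and at 0.978, 1.17, 0.897, 1.23, 0.844 and 0.693 CPM in WT 1 to 6. As with Tac1, cKO 4 and cKO 5 were its highest animals, and its log2 fold change was 0.60 ± 0.22 (SE, edgeR adjusted p = 0.430). Gnrh1, the precursor of gonadotropin-releasing hormone, had 0.68 ± 0.23 (adjusted p = 0.375), and Cort, a close relative of Sst, had 0.28 ± 0.23 (adjusted p = 0.751).

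Receptors of these peptides did not pass either. Of the 15 tested receptors for nociceptin, thyrotropin-releasing hormone, tachykinins, somatostatin, neuropeptide Y and vasoactive intestinal peptide, 8 had a higher and 7 a lower estimate, with a median log2 fold change of 0.0016 and 1 at an unadjusted p under 0.05. Over all genes tested, 53.4% had a higher estimate and 9.54% lay under that p. The receptor under it was Oprl1, the nociceptin receptor, at 43.3 ± 4.93 CPM in cKO and 38.6 ± 2.76 CPM in WT (SD, n = 6 each). Its estimate was 0.17 ± 0.07 on the log2 scale (SE, edgeR adjusted p = 0.480). Sstr2, a somatostatin receptor, had 0.20 ± 0.10 (adjusted p = 0.570) and Npy1r -0.12 ± 0.07 (adjusted p = 0.620). In the list of oxytocin and vasopressin signalling, 4 of 6 genes were tested, 3 higher and 1 lower, with 0 past the threshold and 0 at an unadjusted p under 0.05 in edgeR. Lnpep, the peptidase that cleaves both hormones, was at 116 ± 11.2 CPM in cKO and 127 ± 10.7 CPM in WT, a log2 fold change of -0.12 ± 0.07 (adjusted p = 0.606). Avpr2, the kidney receptor of vasopressin, had at most 3 counts in every library.

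The machinery that makes and stores peptides was counted in the same way. Of 20 genes of peptide processing and dense-core granules, 7 had a higher and 13 a lower estimate in cKO, with a median log2 fold change of -0.03, 0 past the threshold in edgeR and 3 at an unadjusted p under 0.05, all lower, where 6.34% of all genes were lower at that level. Chgb, the granule protein chromogranin B, was at 505 ± 32.5 CPM in cKO and 552 ± 19.0 CPM in WT (SD, n = 6 each), with an estimate of -0.13 ± 0.04 on the log2 scale (SE, edgeR adjusted p = 0.375). Cadps, which primes granules for release, had -0.11 ± 0.04 (adjusted p = 0.431). Trhde, the enzyme that degrades thyrotropin-releasing hormone, had -0.15 ± 0.07 (adjusted p = 0.510).

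Markers of the cells that make these peptides were counted in the same fit. Of 11 general GABAergic genes 10 had a higher estimate (median log2 fold change 0.07), and of 16 interneuron subclass genes 8 had a higher and 8 a lower one (median -0.01). That list holds Prox1, which granule neurons also express. It shares Calb2 with the thalamic list and Tac2 with the habenular list. Tac2 and the striatal marker Penk are also in the list of other peptide precursors, so these lists are not separate. Of 10 CA2 pyramidal markers 9 had a higher estimate (median 0.08), with Amigo2 at 0.25 ± 0.10 (SE, edgeR adjusted p = 0.451), Necab2 at 0.20 ± 0.08 (adjusted p = 0.496) and Rgs14 at -0.08 ± 0.07 (adjusted p = 0.786). Higher estimates were also found for 6 of 9 thalamic, 5 of 7 habenular, 8 of 9 striatal, 2 of 8 neocortical and amygdalar, 11 of 11 choroid plexus and 8 of 8 smooth muscle genes tested. A higher estimate was found for 53.4% of all genes tested. In these lists 0 genes passed in edgeR. At an unadjusted p under 0.05 there were 2 CA2 genes, both higher, and among the GABAergic and the habenular genes 1 higher and 1 lower each. Of all genes tested, 3.2% were higher and 6.34% lower at that level. All 8 smooth muscle genes lay at an unadjusted p under 0.05, and DESeq2, which called 0.393% of all genes, called 6 of them. The summed level of the 8 was 89.8 to 140 CPM in cKO and 49.9 to 86.9 CPM in WT. The part of any of these cells in the peptide levels was not tested.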

How the data were processed

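The authors deposited expected counts (estimated read counts) per gene symbol for 12 libraries. The notes of the submitters on processing name Salmon 1.3.0 and the build GRCm38 (per the submitters' processing notes). The sources used here do not give the annotation, strand setting or transcript-to-gene step. Of the values, 24.8% to 25.9% in each library were not whole, and all were rounded to whole numbers. All 33250 rows were entered, and genes were tested by quasi-likelihood in edgeR 4.0.16 (R 4.3.3) with TMM scaling, filterByExpr by genotype (a count minimum of 10, a total of 15) and genotype as the model. DESeq2 1.42.0 and limma 3.58.1 (voom) were alternatives. The steps were tested on simulated data. Correlations were computed on log2 CPM (prior count 2), two-sided, with 100000 permutations. Ratios were tested by exact permutation, two-sided. Seed matches came from RefSeq microRNAs (GRCm38.p6) and GENCODE M21 3′ UTRs. Totals of 42360624 to 51095816 counts set the precision, and limits for a count of 0 cover counting error only.

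The 10 genes, the 14 gene lists and the tests were chosen with earlier results of these data known. Beside the 10 genes, the text names Emx1, Mirg, B830012L14Rik, up to 3 genes of a list with the smallest p, and the 3 genes closest to each tested gene. Ttr, Adora2a, Penk, Hcrt, Sim1, Sostdc1 and Avpr2 were chosen after their values were seen. Tac2 is named as a marker shared between lists. The labels call the libraries animals of each genotype, and no pair within a genotype agreed within counting noise (chi-square per degree of freedom at least 8.36). P-values set a difference or a relation against the variation between these animals.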

Additional observations from a re-analysis of the deposited data

Results flagged for a closer look

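The libraries given here stood apart from the rest of their genotype beyond the 95% limit of Dixon's test for 6 samples. This held for 5 of 34 groups of 6, where chance gives about 1 in 20. For Oxtr, WT 1 was lowest at 8.70 CPM, with the other WT libraries at 11.3 to 12.3 CPM. As a percent of the CA2 markers, Oxtr was also lowest in WT 1, at 1.77%, against 2.71 to 2.89% in the other WT libraries. Both Oxtr flags rest on the same counts of WT 1. The CA2 sum was highest in WT 1, at 491 CPM, as was the choroid plexus sum, at 11360 CPM, and Sostdc1 belongs to both lists. The part of choroid plexus RNA in this ratio was not tested. For Pnoc as a percent of Gad1 plus Gad2, WT 5 was lowest at 1.34%, with the others at 1.47 to 1.54%. The library labelled cKO 1 was highest of its genotype in Emx1 at 9.14 CPM and lowest in B830012L14Rik at 0.788 CPM.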

How the results depend on the processing

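The count of members past the threshold was 0 under all 22 alternatives. The count over all genes, 2 in the main fit, was 76 with DESeq2, 1 without a low-count filter and 1 with at least 1 CPM in 6 animals. It was 0 with limma-voom, with animal number as a replicate block, without WT 2, WT 3 and cKO 4, and without cKO 4 and cKO 5 (this last alternative was chosen after seeing the data), and with single animals left out it was 6 without cKO 1 and 0 without any other. Deviations of same-numbered animals had correlations of -0.266 to 0.25. The labels do not say whether the numbers pair the animals, and weak correlations of expression cannot decide it. With DESeq2, 6 genes of the lists passed, all of smooth muscle. The Vip estimate was -0.0034 with limma-voom, -0.0834 without WT 2, WT 3 and cKO 4 and -0.20 without cKO 4 and cKO 5, where Trh was -0.3498. Leaving out single animals gave -0.0746 to 0.0895 for Vip, and for Sst -0.0219 (without cKO 4) to 0.1197. With single animals left out the log2 ratios ranged from -0.0205 to 0.1008 for Sst, -0.0853 to 0.0513 for Vip, -0.0895 to 0.0611 for Oxtr and 0.1529 to 0.2635 for Pnoc, and without cKO 4 and cKO 5 they were -0.0421 for Oxtr and -0.1694 for Vip. With Rgs14 in place of the CA2 markers the Oxtr ratio was 0.1692 (adjusted exact permutation p 0.468) and that of Avpr1b 0.54 (0.104), and with Slc32a1 in place of Gad1 plus Gad2 that of Pnoc was 0.1986 (0.104). The Pnoc ratio passed without cKO 1 alone (adjusted exact permutation p 0.0390). In the paired form of the ratio test (replicate block) 0 of 6 ratios passed. The sign changes of 6 differences are too few for 1 ratio alone to pass after adjustment, so this form cannot decide on a single ratio. The number of correlated pairs was 2 (without cKO 4) to 7 with single animals left out, 3 without any one of cKO 1, cKO 2, cKO 6, WT 2, WT 4 and WT 6, and 0 without cKO 4 and cKO 5. Trh and Avpr1b were not tested with at least 1 CPM in 6 animals. The causes were not tested. Depth limits Oxt and Avp, at 0 to 2 and 0 to 11 counts, and Avpr1b, at 16 to 43.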
